A study of Mus musculus with 16 samples.

Results

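Interferon-stimulated genes are the antiviral and immune genes that cells switch on when an interferon binds its receptor. The 39 mouse genes described here were chosen by symbol as members of this class, and all 39 were found among the 22675 genes counted in all 16 libraries. Type I interferons act through the receptor pair Ifnar1 and Ifnar2 and the kinases Jak1 and Tyk2. Signalling leads to the complex ISGF3, which contains Stat2 and Irf9 and binds the interferon-stimulated response element (ISRE) in target promoters. Interferon gamma acts through its own receptor and the gamma-activated sequence (GAS) in promoters. In B cells these genes serve antiviral defence, and they also mark exposure to interferon or to ligands of Toll-like receptors such as the lipopolysaccharide (LPS) in this study's immunization.

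The study sequenced mRNA of splenic memory-phenotype B cells from C57BL/6 mice on day 7 of a response to NP-OVA in LPS and alum, asking how cells with and without Zfp318 differ. Zfp318 is a zinc finger protein needed for IgD expression. The sorted cells were B220+, CD38+ and NIP-binding, and lacked CD138, GL7, FAS and surface IgD. Each library was made from about 1000 cells with Smart-seq2, a full-length cDNA method primed on the poly(A) tail.

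There were 4 groups of 4 libraries. KOTP and KOTN were the tdTomato+ and tdTomato- cells of Zfp318ZSDAT/ZSDAT mice, which are homozygous for a reporter allele of Zfp318. HetTP and HetTN were the same populations from Zfp318ZSDAT/+ mice, which keep 1 normal copy. All mice also carried AID-Cre, a Cre recombinase driven by a gene of activated B cells, B1-8hi, a heavy chain that binds the hapten, and GFP. The heterozygous cells are thus no wild type, and the labels do not tie the libraries of a group to different animals. The p-values below therefore reflect the variation among these libraries, part of which may be technical.

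Total counts ranged from 7748787 to 15742445 per library. Zfp318 stood at 0.467 to 5.82 CPM (a library's counts scaled to a common total) in homozygous libraries and at 70.9 to 153 CPM in heterozygous libraries. The heterozygous libraries varied more: the biological coefficient of variation was 0.2 over the 8 homozygous and 0.845 over the 8 heterozygous libraries, and the share of tested genes without a count was 1.52 to 2.34% per homozygous and 7.02 to 13.6% per heterozygous library. B cell markers summed to 14672 to 16423 CPM in KOTP, 14675 to 15248 CPM in KOTN, 9129 to 11402 CPM in HetTP and 10374 to 13650 CPM in HetTN. Macrophage markers, all 10 of them with counts in each group, summed to 75.5 to 107 CPM in KOTP, 103 to 150 CPM in KOTN, 121 to 633 CPM in HetTP and 501 to 1225 CPM in HetTN. T cell markers summed to 28.8 to 50.0 CPM over the homozygous and 187 to 639 CPM over the heterozygous libraries. Cd4 had no count in any group, and Cd3e and Cd8a had none in either homozygous group. The 6 markers of plasmacytoid dendritic cells, a major source of type I interferon, summed to 14.01 to 73.5 CPM per library. That sum rests on few genes. Clec10a had no count in either homozygous group, Ccr9, Cox6a2 and Clec10a had none in HetTP, and Siglech, Cox6a2 and Klk1 had none in HetTN. In sorted bulk samples like these, fewer cells of a type and less RNA per cell cannot be told apart. Each genotype was deposited as its own table, so table and genotype cannot be told apart either.

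The promoters of 4 of the genes are shown first, because they show matches to the ISRE core and a gene of the class whose window lacks one. They are RefSeq windows of 300 bases around the start of each gene (GRCm38.p6), read 5′ to 3′ along the gene. Capitals mark the ISRE core, searched as GAAA, any 2 bases and GAAA again on both strands, with overlapping matches joined. Isg15 lies on the minus strand (chr4:156200769-156201068), Ifit3 on the plus strand (chr19:34583279-34583578), and Ifitm3 (chr7:141010695-141010994) and Irf7 (chr7:141266375-141266674) on the minus strand. Isg15 held 3 overlapping cores, Ifitm3 held 2 close to its start, and the 2 of Ifit3 are on the other strand, so their letters read as the reverse complement.
Isg15: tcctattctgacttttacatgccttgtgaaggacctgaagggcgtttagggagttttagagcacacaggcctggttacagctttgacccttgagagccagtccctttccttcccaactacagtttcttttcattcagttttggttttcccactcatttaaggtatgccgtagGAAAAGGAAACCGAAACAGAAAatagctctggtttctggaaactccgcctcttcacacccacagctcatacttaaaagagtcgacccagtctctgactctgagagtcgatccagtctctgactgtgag
Ifit3: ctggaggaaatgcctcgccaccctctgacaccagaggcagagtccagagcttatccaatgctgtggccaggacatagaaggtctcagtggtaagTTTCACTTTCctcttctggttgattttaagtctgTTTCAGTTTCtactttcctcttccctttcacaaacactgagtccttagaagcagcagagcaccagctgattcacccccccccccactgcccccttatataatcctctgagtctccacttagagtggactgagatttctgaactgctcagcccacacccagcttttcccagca
Ifitm3: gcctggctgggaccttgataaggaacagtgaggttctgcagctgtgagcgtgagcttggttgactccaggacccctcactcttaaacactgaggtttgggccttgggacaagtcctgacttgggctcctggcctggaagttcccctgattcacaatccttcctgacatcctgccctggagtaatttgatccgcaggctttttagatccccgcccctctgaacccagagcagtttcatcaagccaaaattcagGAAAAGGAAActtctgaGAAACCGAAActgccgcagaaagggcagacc
Irf7: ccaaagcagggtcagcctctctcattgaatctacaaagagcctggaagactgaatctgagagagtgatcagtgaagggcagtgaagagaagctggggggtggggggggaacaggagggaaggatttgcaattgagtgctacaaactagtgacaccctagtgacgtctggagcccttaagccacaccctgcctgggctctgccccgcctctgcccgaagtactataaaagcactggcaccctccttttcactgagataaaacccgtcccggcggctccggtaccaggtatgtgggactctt
The Irf7 window held no match to these letters.

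Of the 39 genes, 29 had a window in the promoter table, and 17 of these 29 (58.6%) held an ISRE core, against 3.99% of all 27025 genes with a window. The GAS motif, searched as TTCNNNGAA, which reads the same on both strands, stood in 8 of the 29 genes (27.6%), against 9.55% of all genes. The genes with both motifs were Oas1a, Gbp7, Igtp, Bst2 and Ifitm3. Several of the 39 are neighbours in the genome: Ifit2, Ifit3 and Ifit1 on chromosome 19, Gbp7, Gbp3 and Gbp2 on chromosome 3, Oasl2 with Oasl1 and Oas2 with Oas3 on chromosome 5, and Parp14, Dtx3l and Parp9 on chromosome 16 (GRCm38, GENCODE M21).

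Most of the class was expressed at low to middle levels in every group, as the heat map shows. Over all 16 libraries, 2 genes averaged under 1 CPM (Ifi44 and the GTPase gene Iigp1), 10 averaged 1 to 10 CPM, 24 averaged 10 to 100 CPM and 3 (Ly6a, Ifi35 and Samd9l) averaged more. CPM here is scaled with TMM factors. Per kilobase of coding sequence, Ly6a led with 1760 CPM, followed by Ifi35 with 211 and the tetherin gene Bst2 with 90.1 CPM per kb. Genes widely used as reporters of type I interferon were low: Ifit1 averaged 4.13, Isg15 5.44, Mx1 5.74 and Rsad2 1.27 CPM.

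**Figure D1:**
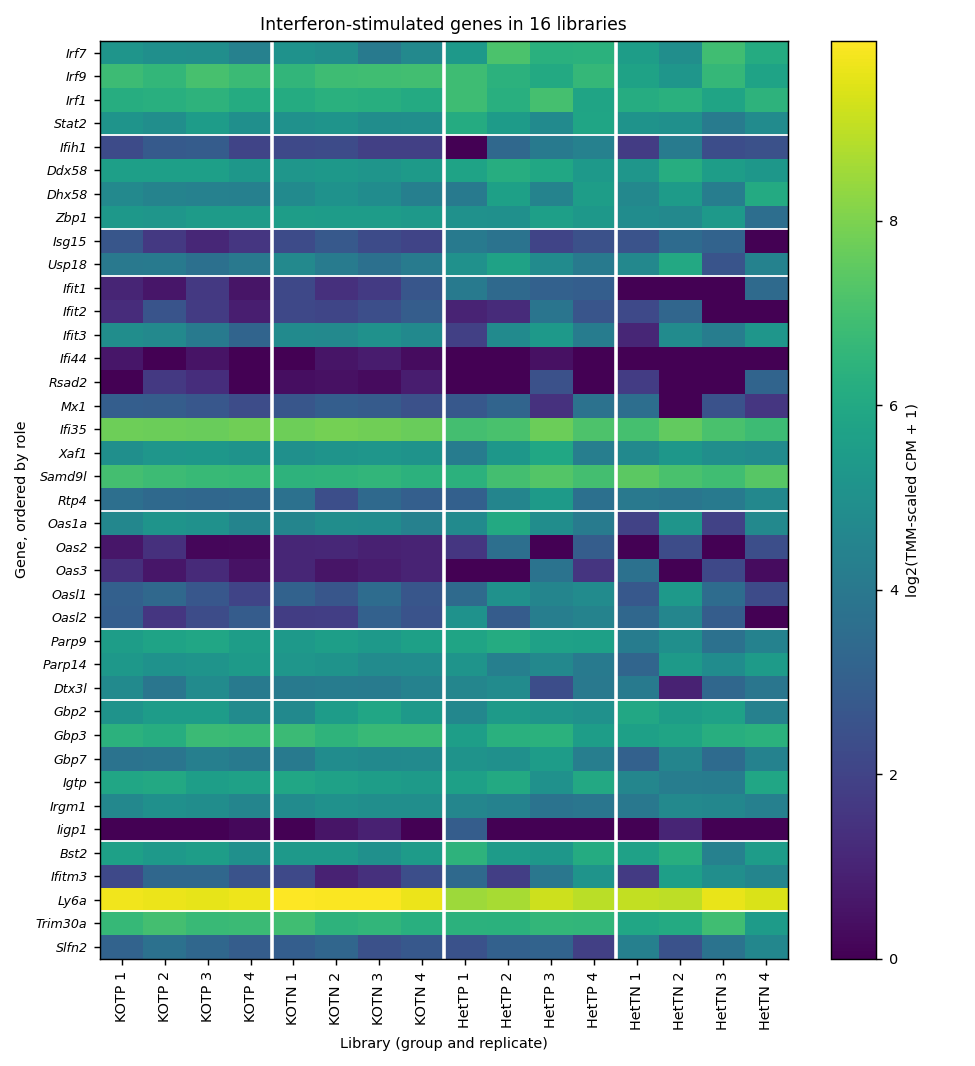
Levels of the 39 genes (down the page, ordered by role, white lines between roles) in the 16 libraries (across, white lines between groups), as log2(TMM-scaled CPM + 1) in colour. Ly6a is the brightest line and is brighter in homozygous than in heterozygous libraries, and Ifi44 and Iigp1 are dark almost throughout.

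Leaving out Ly6a, which outweighs the others, the 38 remaining genes summed to 1230 to 1388 CPM in KOTP, 1238 to 1313 CPM in KOTN, 1297 to 1528 CPM in HetTP and 1040 to 1350 CPM in HetTN. These ranges overlapped between homozygous and heterozygous libraries of the same population. The mean of log2(CPM + 1), taken over all 39 genes with Ly6a included, weighs each gene the same. It was 3.92 to 4.23 in KOTP and 4.25 to 4.57 in HetTP. It was 4.16 to 4.18 in KOTN and 3.88 to 4.29 in HetTN, with overlap. The tdTomato+ ranges did not overlap, but 4.23 and 4.25 lie close together. Under upper quartile scaling the median log2 fold change over all genes between KOTP and HetTP shifted by 0.098, more than that gap. This score was not computed under other scalings or over all genes. The spread between libraries was wider in the heterozygous groups: the median SD on the log2(CPM + 1) scale over the 37 genes tested between genotypes was 0.27 in KOTP, 0.21 in KOTN, 0.60 in HetTP and 0.83 in HetTN. Over all tested genes the same median was 0.24 in KOTP, 0.24 in KOTN, 0.61 in HetTP and 0.73 in HetTN.

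Homozygous against heterozygous tdTomato+ cells differed in 2 of the 37 genes tested. Ly6a was higher and Irf7 was lower in KOTP than in HetTP. Over all genes, 1099 of 10687 passed (10.3%), so the 2 of 37 (5.41%) were fewer than that share. The median log2 fold change of the 37 was -0.30, against -0.03 over all genes tested, with 13 values above and 24 below 0 (17 and 20 with voom). Calls are at a Benjamini-Hochberg adjusted p under 0.05 over all genes in edgeR's quasi-likelihood test, fitted to all 16 libraries. Only Ifi44 and Iigp1 were too low to be tested between genotypes. The deposited counts of Iigp1 gave at most 6.66 CPM in 1 HetTP library and at most 1.04 CPM in any other, and those of Ifi44 at most 0.674 CPM.

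Ly6a encodes Sca-1, a membrane-anchored protein of haematopoietic cells that interferons induce. Its level was 865, 814, 775 and 829 CPM in the KOTP libraries, against 361, 404, 589 and 486 CPM in the HetTP libraries. It was 991, 951, 955 and 814 CPM in KOTN, against 530, 502, 782 and 673 CPM in HetTN. In both populations every homozygous library lay above every heterozygous one. The log2 fold change was 0.83 (SE 0.16, adjusted p = 0.00166) between KOTP and HetTP and 0.58 (SE 0.16, adjusted p = 0.0243) between KOTN and HetTN, by edgeR. The first was also past the threshold under each of 25 alternatives (adjusted p at most 0.0069).

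Irf7 is the transcription factor that amplifies type I interferon production, and is itself induced by ISGF3. It stood at 35.7, 30.0, 29.3 and 19.7 CPM in KOTP, against 39.4, 140, 78.2 and 81.0 CPM in HetTP, and these groups did not overlap. In tdTomato- cells it stood at 32.9, 29.6, 15.7 and 25.0 CPM in KOTN, against 46.1, 29.0, 118 and 68.8 CPM in HetTN, where 1 heterozygous library fell among the homozygous ones. The log2 fold change was -1.56 (SE 0.41, adjusted p = 0.0174) in tdTomato+ and -1.35 (SE 0.40, adjusted p = 0.0391) in tdTomato- cells, by edgeR. The tdTomato+ call was lost without KOTP replicate 4 or without HetTP replicate 2, the highest library. The tdTomato- call was lost without any single KOTN library, and without KOTP replicate 1, 2 or 3 or HetTN replicate 3 or 4. It was also lost under upper quartile scaling and in edgeR's fit of the 8 tdTomato- libraries alone. HetTN replicate 3, the highest of its group, also stood apart in other markers: its neutrophil markers summed to 279.8 CPM, against 0 to 4.89 CPM in the other HetTN libraries, and its germinal center and plasma cell markers to 1019 CPM, against 472 to 641 CPM. Their part in the Irf7 result was not tested. HetTP replicate 2 had the lowest macrophage marker sum of its group, 121 CPM.

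**Figure D2:**
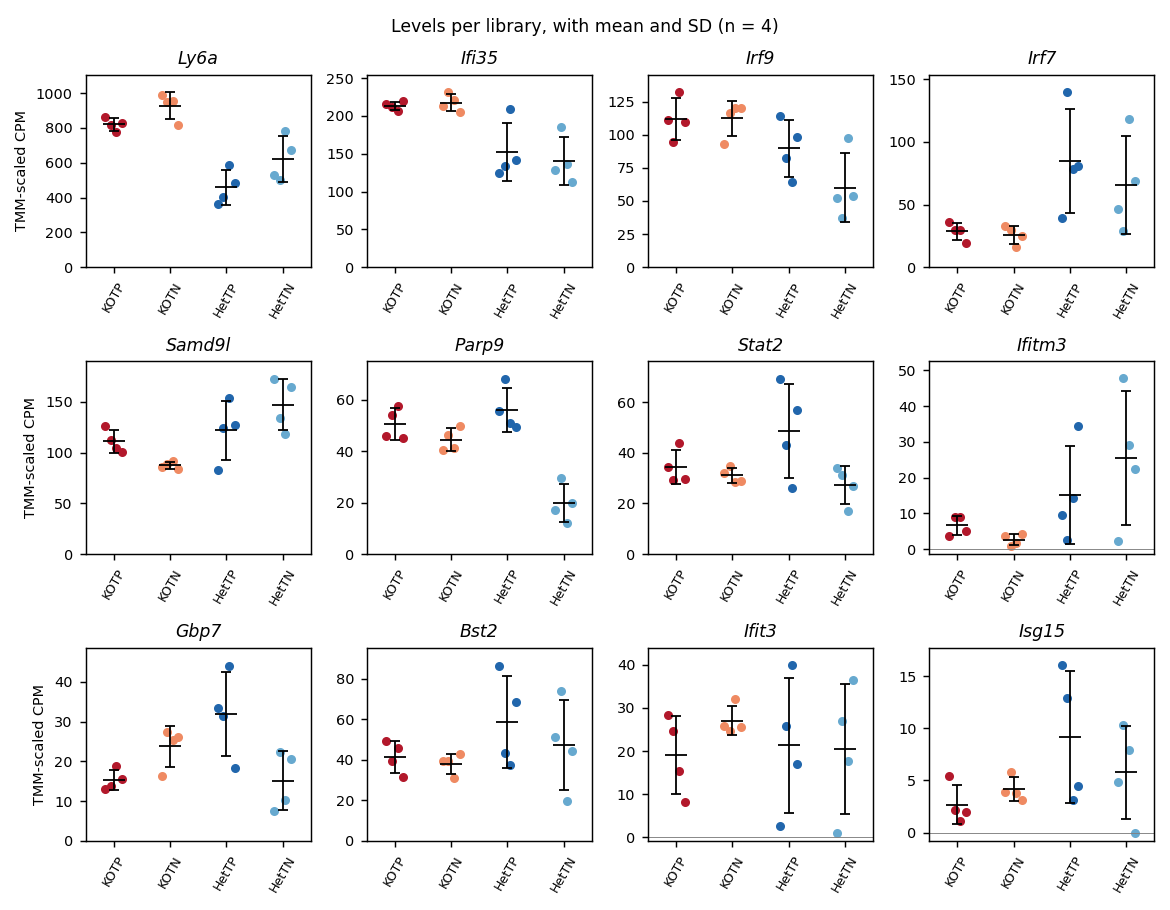
Level of 12 genes in each library in TMM-scaled CPM (points), with the mean and SD of 4 libraries (black), for KOTP, KOTN, HetTP and HetTN from left to right. Ly6a is higher in every homozygous library than in any heterozygous one of the same population, Irf7 in KOTP lies below HetTP, and Parp9 is low in HetTN alone.

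Homozygous against heterozygous tdTomato- cells differed in 7 of the 37 genes tested (18.9%), against 1121 of 10687 genes (10.5%) in all. Ly6a, Parp9, Ifi35 and Irf9 were higher in KOTN, and Irf7, Samd9l and Ifitm3 were lower. The median of the 37 log2 fold changes was 0.05, and 0.00 over all genes tested, with 19 values above and 18 below 0. With voom the medians were 0.39 for the 37 and 0.33 for all genes, with 25 values above and 12 below 0. These 7 calls rest on the fit of all 16 libraries: in a fit of the 8 tdTomato- libraries alone, 2 of them, Samd9l and Ifitm3, were past the threshold. Without single libraries, Samd9l and Parp9 kept their calls throughout, while the others lost theirs in some: Ly6a without KOTN replicate 1, 2 or 3 or HetTN replicate 2, Ifi35 without KOTN replicate 1, 2 or 3 or HetTN replicate 4, and Ifitm3 without KOTN replicate 2 or 3 or HetTN replicate 2.

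Irf9, the DNA-binding subunit of ISGF3, had 92.9, 117, 120 and 120 CPM in KOTN, against 51.9, 36.9, 97.7 and 53.8 CPM in HetTN. The highest HetTN library overlapped the lowest KOTN library, and the log2 fold change was 0.90 (SE 0.25, adjusted p = 0.0266, edgeR). In tdTomato+ cells Irf9 had 111, 94.4, 132 and 110 CPM in KOTP and 114, 82.5, 64.3 and 98.2 CPM in HetTP, a log2 difference of 0.31 (SE 0.25, adjusted p = 0.562). The call in tdTomato- cells was lost without any one of KOTN replicates 2, 3 or 4 or HetTN replicates 1, 2 or 4. Stat2, its partner in ISGF3, averaged 34.4 ± 6.78 CPM in KOTP and 31.2 ± 2.98 CPM in KOTN, and 48.7 ± 18.5 CPM in HetTP and 27.2 ± 7.46 CPM in HetTN (SD, n = 4). It passed in neither population. Irf1, the factor most closely tied to interferon gamma, averaged 76.2 ± 7.69 CPM in KOTP, 72.0 ± 5.36 CPM in KOTN, 93.7 ± 33.9 CPM in HetTP and 72.8 ± 13.7 CPM in HetTN, and passed in neither. The coding sequence of Irf1 shares 100 bases with that of Gm17334 on the opposite strand, and the counting's strand setting is not stated. No other of the 39 shares coding sequence with another gene in that annotation.

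Parp9, an ADP-ribosyltransferase-like protein that works with the ubiquitin ligase Dtx3l, had 40.5, 46.5, 41.3 and 49.8 CPM in KOTN, against 17.1, 29.8, 12.1 and 20.0 CPM in HetTN. The groups did not overlap, and the log2 fold change was 1.17 (SE 0.26, adjusted p = 0.00755, edgeR). The call was lost with voom on all 16 libraries, and in both fits of the 8 tdTomato- libraries, with adjusted p-values of 0.0551 to 0.0769. In KOTP it had 45.9, 54.0, 57.8 and 45.0 CPM, against 55.7, 68.2, 50.8 and 49.3 CPM in HetTP, where the ranges overlapped (log2 fold change -0.15, SE 0.25, adjusted p = 0.856). HetTN was thus the 1 group of the 4 in which Parp9 was low. Dtx3l, whose gene overlaps the start of Parp9 head to head, averaged 20.8 ± 6.52 CPM in KOTP, 17.3 ± 1.95 CPM in KOTN, 17.4 ± 10.1 CPM in HetTP and 9.91 ± 6.58 CPM in HetTN, and passed in neither population. Parp14, the third gene of the cluster, passed in neither.

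Ifi35, which forms a complex with the protein Nmi, had 213, 232, 221 and 205 CPM in KOTN, against 128, 186, 137 and 113 CPM in HetTN, without overlap (log2 fold change 0.62, SE 0.17, adjusted p = 0.0252, edgeR). In tdTomato+ cells its values were 216, 212, 206 and 219 CPM in KOTP and 125, 134, 209 and 142 CPM in HetTP. All but 1 HetTP library were below KOTP, and the log2 fold change of 0.48 (SE 0.17) had an adjusted p of 0.0851. That p was 0.00965 to 0.18 over the alternatives. Samd9l, an interferon-induced restraint on growth and on poxviruses, went the other way in tdTomato- cells. It had 86.0, 88.8, 91.9 and 84.3 CPM in KOTN, against 172, 134, 119 and 165 CPM in HetTN, without overlap (log2 fold change -0.75, SE 0.18, adjusted p = 0.0118), and this call held under all 25 alternatives. In tdTomato+ cells it had 126, 113, 104 and 101 CPM in KOTP and 83.4, 124, 154 and 127 CPM in HetTP.

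Ifitm3, which blocks the entry of enveloped viruses and carries the ISRE cores printed above, had 3.61, 0.935, 1.57 and 4.21 CPM in KOTN, against 2.22, 47.8, 29.2 and 22.4 CPM in HetTN. It was high in 3 HetTN libraries, and HetTN replicate 1 was among the homozygous values. The log2 fold change was -3.30 (SE 0.86, adjusted p = 0.0201, edgeR). In tdTomato+ cells Ifitm3 had 3.60, 9.02, 8.89 and 4.92 CPM in KOTP and 9.65, 2.62, 14.2 and 34.5 CPM in HetTP, and did not pass (adjusted p = 0.45). The macrophage marker sum moved in the same direction between genotypes: in HetTN it was 684, 1225, 651 and 501 CPM in replicates 1 to 4, and 6 of its 10 genes were lower in KOTN by the same test. It was 620, 121, 633 and 293 CPM in HetTP, where 5 of the 10 were lower in KOTP. Their part in the Ifitm3 and Irf7 results was not tested. The lost surface marker differed too: Ighd stood at 15.8 to 44.7 CPM in homozygous and 733 to 1043 CPM in heterozygous libraries, so what the IgD gate let through cannot be told apart from genotype.

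**Figure D3:**
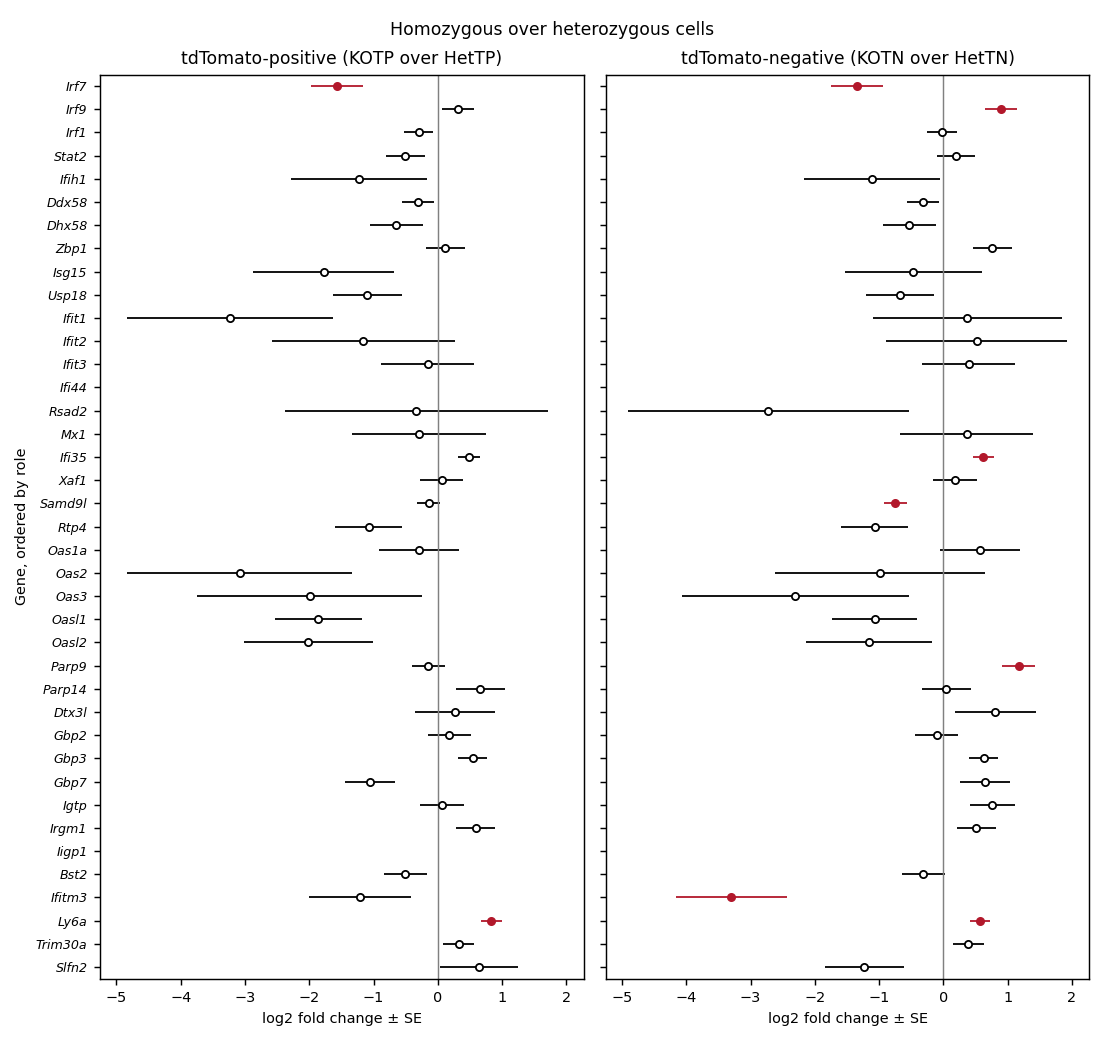
Log2 fold change of homozygous over heterozygous cells with its standard error for each of the 37 tested genes, in tdTomato+ cells on the left and tdTomato- cells on the right. Filled red points passed the threshold, 2 on the left and 7 on the right. The low-count genes Rsad2, Oas2 and Oas3 have the widest bars.

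The remaining antiviral genes did not pass in either genotype comparison in edgeR's fit of all 16 libraries. The 5 genes of the oligoadenylate synthetase family, OAS-like genes included, all had negative log2 values between KOTP and HetTP (median -1.99, and 1 of the 5 turned positive with voom). None passed in edgeR's fit of all 16 libraries. Oasl1 had 7.32, 9.29, 5.47 and 3.07 CPM in KOTP, against 9.82, 32.1, 22.2 and 26.8 CPM in HetTP. The groups did not overlap, and the log2 fold change was -1.86 (SE 0.67, adjusted p = 0.0935). Oasl1 passed with DESeq2, with voom, in the fit of the 8 tdTomato+ libraries alone, with voom on those 8, and without HetTN replicate 2. Oasl2 (log2 fold change -2.01, SE 1.00, adjusted p = 0.264 by edgeR) passed with voom, in the fit of those 8 and with voom on them. Between KOTN and HetTN, 4 of the 5 values were negative, but 3 of the 5 were positive with voom, and none passed. Oas2, a processive member of the family, was low throughout, at 0.514, 1.59, 0.114 and 0.154 CPM in KOTP and 2.00, 11.5, 0 and 6.74 CPM in HetTP, and at 1.11, 1.17, 0.899 and 0.963 CPM in KOTN and 0, 3.98, 0 and 4.24 CPM in HetTN.

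The Ifit proteins bind foreign RNA ends. Ifit1 had 1.03, 0.531, 2.16 and 0.461 CPM in KOTP, against 15.6, 9.59, 7.46 and 6.81 CPM in HetTP, without overlap and with an adjusted p of 0.262 (log2 fold change -3.23, SE 1.60). It passed with voom, in the fit of the 8 tdTomato+ libraries, with voom on those 8, and without HetTN replicate 4. In HetTN it had no count in 3 libraries and 9.75 CPM in the fourth, so at this depth its level there was set by a single library. Without that library, HetTN replicate 4, Ifit1 passed as higher in KOTN than in HetTN. Ifit3 ranged over 8.30 to 28.4 CPM in KOTP, 24.7 to 32.0 CPM in KOTN, 2.66 to 39.9 CPM in HetTP and 1.11 to 36.4 CPM in HetTN. The heterozygous ranges of Ifit3 enclosed the homozygous ones. Isg15, the ubiquitin-like modifier of this response, had 5.40, 2.12, 1.14 and 2.00 CPM in KOTP, against 16.1, 12.9, 3.08 and 4.50 CPM in HetTP. In KOTN it had 3.88, 5.84, 3.82 and 3.13 CPM, against 4.89, 10.3, 7.89 and 0 CPM in HetTN. It passed in neither, with an adjusted p of 0.408 in tdTomato+ and 0.865 in tdTomato- cells by edgeR, nor did Usp18, which removes it from proteins. Among the sensors, Ifih1, Ddx58 (RIG-I), Dhx58 and Zbp1 had adjusted p-values of 0.126 or more in both populations.

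Of the interferon-induced GTPases, which act at the vacuoles of intracellular pathogens, 4 of 5 tested had positive log2 values in each population and none passed. The exception in tdTomato+ cells was Gbp7 (log2 fold change -1.05, SE 0.39, adjusted p = 0.101 by edgeR), which DESeq2 called. In tdTomato- cells Gbp3 was nearest, with 108, 88.4, 104 and 102 CPM in KOTN, against 50.0, 55.2, 74.0 and 80.8 CPM in HetTN. These did not overlap (log2 fold change 0.63, SE 0.23, adjusted p = 0.0847), and Gbp3 passed under upper quartile scaling. Bst2, which tethers budding virions, had 49.2, 39.4, 45.9 and 31.4 CPM in KOTP, against 86.5, 43.2, 37.6 and 68.4 CPM in HetTP. It had 39.2, 39.3, 31.1 and 43.0 CPM in KOTN, against 51.5, 73.9, 19.9 and 44.4 CPM in HetTN, and the ranges overlapped in both populations. Slfn2, needed for quiescence of lymphocytes in mice, averaged 9.01 ± 2.37 CPM in KOTP, 6.43 ± 1.73 CPM in KOTN, 5.74 ± 2.51 CPM in HetTP and 15.1 ± 8.23 CPM in HetTN (SD, n = 4), and passed in neither.

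Counted by ranges alone, 5 of the 37 genes did not overlap between KOTP and HetTP: Irf7, Ifit1 and Oasl1 below, Ly6a and Trim30a above. That is under the 20.2% of all tested genes without overlap. Between KOTN and HetTN, 8 of the 37 did not overlap, against 19.8% of all tested genes: Zbp1, Ifi35, Parp9, Gbp3, Irgm1 and Ly6a above, Samd9l and Rtp4 below.

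The reporter comparison asks whether cells with tdTomato differ from those without it within a genotype. In homozygous mice none of the 34 genes tested passed, against 236 of 9974 genes (2.37%) in all, and 6 of the 34 (17.6%) had an unadjusted p under 0.05, as did 12.0% of all tested genes. DESeq2, voom and a fit without a filter each called 1, Samd9l. Rsad2, Oas2 and Oas3 were also too low to test here. The median log2 fold change was 0.06, and 0.01 over all genes. Samd9l came nearest, with 126, 113, 104 and 101 CPM in KOTP, against 86.0, 88.8, 91.9 and 84.3 CPM in KOTN. It was the 1 gene of the 34 whose groups did not overlap, where 7.45% of all tested genes did not, and its log2 fold change of 0.35 (SE 0.10) had an adjusted p of 0.0605 by edgeR. Gbp7 was at 12.98, 13.8, 18.8 and 15.7 CPM in KOTP and 16.2, 27.5, 25.4 and 26.1 CPM in KOTN (log2 fold change -0.62, SE 0.20, adjusted p = 0.127). Without KOTN replicate 1, the low library, that p was 0.0214. For Ifitm3 the log2 fold change was 1.37 (SE 0.46, adjusted p = 0.136) at the low levels given above.

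In heterozygous mice none of the 36 genes tested passed, and none of all 9703 genes did (0%), while 487 of those 9703 and 1 of the 36 had an unadjusted p under 0.05. DESeq2 called 38 genes, none of them among the 36. The median log2 fold change of the 36 was 0.34, against 0.02 over all genes, with 26 values above and 10 below 0. The exception by single-gene p was Parp9, with 55.7, 68.2, 50.8 and 49.3 CPM in HetTP, against 17.1, 29.8, 12.1 and 20.0 CPM in HetTN. Its groups did not overlap, as was so for 4.84% of all tested genes. The log2 fold change was 1.50 (SE 0.39, adjusted p = 0.686, edgeR), and 1 fit of all 16 libraries gave Parp9 an adjusted p of 0.0111. Next by p came Ly6a (log2 fold change -0.43, SE 0.21) and Stat2 (0.84, SE 0.41), both with an adjusted p of 1.00.

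**Figure D4:**
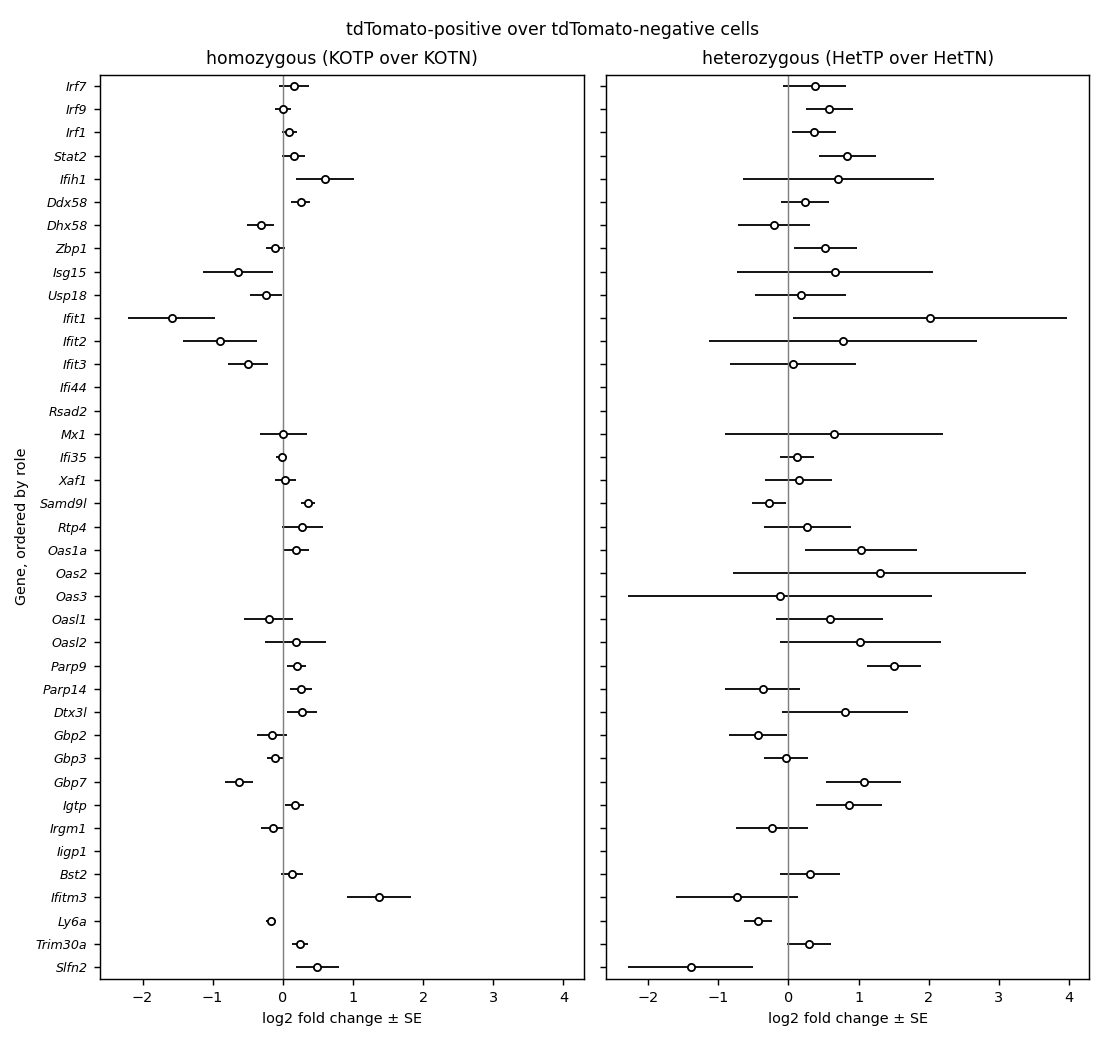
Log2 fold change of tdTomato+ over tdTomato- cells with its standard error for each tested gene, in homozygous mice on the left (34 genes) and heterozygous mice on the right (36 genes). No point is filled, since none passed, and the bars are wider on the right.

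Whether the reporter difference depended on genotype was tested as KOTP over KOTN against HetTP over HetTN. None of the 37 genes passed, against 13 of 10687 (0.122%) in all. By unadjusted p, 4 of the 37 (10.8%) were under 0.05, near the 9.28% of all tested genes, and DESeq2 called 1 of the 4, Parp9. The 3 smallest p-values belonged to Parp9 (log2 difference -1.32, SE 0.36, adjusted p = 0.176), Gbp7 (-1.70, SE 0.55, adjusted p = 0.265) and Samd9l (0.61, SE 0.25, adjusted p = 0.41), by edgeR. The levels behind Gbp7 were the KOTP and KOTN values above with 33.5, 31.3, 44.0 and 18.3 CPM in HetTP and 7.45, 22.2, 10.2 and 20.6 CPM in HetTN. Its means were thus lower in tdTomato+ than in tdTomato- cells of homozygous mice, and higher in heterozygous mice.

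Interferon transcripts themselves had few or no counts in these sorted cells. Of 19 interferon genes looked up, 16 had no count in any library, among them Ifnb1 and every Ifna gene on that list. For scale, 3 counts over a group would be 0.0575 to 0.0867 CPM. Reads shared by close copies, such as the Ifna genes, may not have been counted, since the multi-mapping setting is not given. Counts over a whole group were 2 in KOTP and 2 in KOTN for Ifng, 5 in KOTN, 18 in HetTP and 6 in HetTN for Ifnk, and 4 in HetTP for Ifne, with 0 elsewhere. No ligand could be tested.

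The receptors and their signalling chain were all expressed. Ifnar1 averaged 16.3 ± 1.80 CPM in KOTP, 15.5 ± 3.05 CPM in KOTN, 22.5 ± 15.6 CPM in HetTP and 21.9 ± 9.43 CPM in HetTN (SD, n = 4), and Ifnar1 and Ifnar2 passed in none of the 5 comparisons. Ifngr1, the ligand-binding chain of the interferon gamma receptor, averaged 183 ± 15.6 CPM in KOTP, against 112 ± 20.7 CPM in HetTP, and 213 ± 32.3 CPM in KOTN, against 130 ± 36.5 CPM in HetTN. It was the 1 gene of 17 on the receptor and JAK-STAT list to pass between genotypes in tdTomato+ cells (log2 fold change 0.71, SE 0.19, adjusted p = 0.0224), and passed in tdTomato- cells as well (0.71, SE 0.19, adjusted p = 0.0252, edgeR). Over all tested genes, 10.3% passed between genotypes in tdTomato+ and 10.5% in tdTomato- cells. In tdTomato- cells 3 of the 17 passed. Besides Ifngr1 these were Irf8, a B cell and myeloid factor of the interferon regulatory family, at 778 ± 20.9 CPM in KOTN against 520 ± 101 CPM in HetTN, and Irf2, which opposes Irf1, at 70.0 ± 6.22 CPM in KOTN against 119 ± 19.4 CPM in HetTN. Irf8 is also a gene of macrophages and dendritic cells. In homozygous mice 2 of 17 were higher in tdTomato+ cells: Jak1, at 289 ± 18.9 CPM in KOTP against 234 ± 10.9 CPM in KOTN (adjusted p = 0.0202), and Irf2, at 95.4 ± 7.51 CPM in KOTP (adjusted p = 0.0166, edgeR). In that comparison 2.37% of all tested genes passed.

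Among 18 sensors and adaptors upstream of interferon production, Tlr9, the endosomal receptor of DNA, averaged 51.4 ± 6.17 CPM in KOTN, against 1.98 ± 1.94 CPM in HetTN (adjusted p = 0.00574, edgeR). Tlr3, the receptor of double-stranded RNA, averaged 42.6 ± 3.33 CPM in KOTN, against 1.93 ± 2.35 CPM in HetTN (adjusted p = 0.0182, edgeR). In tdTomato+ cells neither passed. Tlr9 had 50.4, 7.99, 0.237 and 13.1 CPM in HetTP, against 27.2 to 42.1 CPM in KOTP. Tlr3 had 3.33, 32.0, 6.87 and 0 CPM in HetTP, against 11.5 to 20.5 CPM in KOTP. The calls on these added lists were not followed through the alternatives. Within homozygous mice Tlr3 was lower in KOTP, at 16.2 ± 3.71 CPM, than in KOTN (log2 fold change -1.38, SE 0.18, adjusted p = 2.42e-05). Unc93b1, the chaperone that carries both receptors to endosomes, averaged 1539 ± 116 CPM in KOTP, against 942 ± 242 CPM in HetTP, and 1642 ± 69.6 CPM in KOTN, against 832 ± 165 CPM in HetTN. It passed in both populations, so 1 of 18 passed in tdTomato+ cells and 3 of 18 in tdTomato- cells, all of them higher in homozygous cells. The shares over all tested genes were 10.3% in tdTomato+ and 10.5% in tdTomato- cells.

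Class I presentation genes, which interferons also induce, were counted as a separate list of 13. In tdTomato+ cells 4 of 13 were higher in KOTP and none was lower: B2m, the light chain of class I, at 3926 ± 180 CPM in KOTP against 2815 ± 314 CPM in HetTP, and the immunoproteasome subunits Psmb8, Psmb9 and Psmb10, with log2 fold changes of 0.36, 0.48 and 0.51. In tdTomato- cells 1 of 13 passed, Psmb9, at 690 ± 22.9 CPM in KOTN against 495 ± 120 CPM in HetTN (adjusted p = 0.0329, edgeR). These counts stand against 10.3% of all tested genes in tdTomato+ and 10.5% in tdTomato- cells. None of the 13 passed between tdTomato+ and tdTomato- cells in either genotype. The B cell marker sum was higher in homozygous libraries too, with the ranges given above, and its part in these differences was not tested.

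The calls can be set against the promoter windows only in part, since Ly6a and Parp9 had no window. Between KOTP and HetTP, the 17 tested genes with a core in the window had a median log2 fold change of -0.33 and no call, and the 11 tested genes without one had a median of -0.14 and 1 call. Between KOTN and HetTN, the same 17 had a median of 0.20 and 1 call, Ifitm3, and the same 11 a median of -0.02 and 4 calls, Irf7, Irf9, Ifi35 and Samd9l. The difference between these sets was not tested, and a core is only a match of letters in the window.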

How the data were processed

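Messenger RNA was measured in 16 Smart-seq2 libraries. Per the submitters' processing notes, reads were processed with Trim Galore, STAR 2.2.0 and featureCounts on mm10. Strand and multi-mapping settings are not given in the sources used here. Genes with close copies (Ifit, Oas, Gbp, Ly6a, Trim30a, Slfn2, Ifna) are therefore uncertain. The authors deposited 1 table per genotype of raw counts per gene, which the file headers place on coding sequence; their RPM columns were not used.

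The tables, each of 22680 entries, were joined on symbols, without duplicated names. Symbols were matched to GENCODE M21. CPM is the count relative to the library total, scaled with TMM. Totals limit precision, and a floor of 3 counts per group covers counting error only. Genes kept by filterByExpr were tested with the robust quasi-likelihood test of edgeR 4.0.16 (R 4.3.3, limma 3.58.1), on the 8 libraries of a genotype for the reporter comparisons and on all 16 otherwise, with Benjamini-Hochberg adjustment. The script was tested on simulated data.

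Every gene of the class is accounted for. Full statistics go to those past 0.05, or otherwise to the 3 with the smallest p, and values per library also to chosen representatives of each role. Other lists name up to 4 genes past the threshold. The genes and lists were chosen with earlier results of these data known. Results were recomputed with RLE or upper quartile scaling, without a filter, at 5 CPM in 4 libraries, DESeq2 1.42.0, voom with sample weights, a replicate block, other sets of libraries, and each library left out. Figures were drawn with matplotlib 3.10.9.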

Additional observations from a re-analysis of the deposited data

Results flagged for a closer look

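Irf9 in KOTN replicate 1, at 92.9 CPM, lay far below the other KOTN libraries, of which the nearest had 117 CPM. It was the 1 such library among 60 groups of 4 values examined (15 genes in 4 groups). Chance alone flags about 1 in every 20 such groups, so 1 in 60 is no more than chance gives.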

How the results depend on the processing

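No gene of the class past the threshold in edgeR's main fits changed direction under any alternative run. The calls on the added lists were not followed in this way. In homozygous mice, DESeq2, voom and the lack of a filter each called 1 of the genes between tdTomato+ and tdTomato- cells, and leaving out a library gave 0 to 2. Over all genes, DESeq2 called 358, 1 fit of all 16 libraries called 2, and leaving out a library gave 128 to 396. In heterozygous mice, 1 fit of all 16 libraries called 1 of the genes and 114 of all genes, DESeq2 called 38 of all genes and the lack of a filter 1, and leaving out a library gave 0. Between genotypes in tdTomato+ cells, the calls among the genes were 4 with DESeq2, 6 with voom, 5 with the 8 libraries compared, 5 with voom on those 8 (added after the data were seen) and 1 to 4 without a library, and those over all genes were 722 to 1296 without a library. In tdTomato- cells they were 2 with the 8 libraries compared, 3 with voom on those 8 (also added) and 2 to 8 without a library, and over all genes 724 with those 8 and 608 to 1305 without a library. For the dependence on genotype, DESeq2 called 1 and leaving out a library gave 0 to 1, while over all genes DESeq2 called 194, voom 7, and leaving out a library 1 to 41. The cause was not tested, except that leaving libraries out or fitting fewer changes the estimate of spread by construction.

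The labels do not say whether replicate numbers pair samples. Deviations of samples with the same number had correlations of -0.0294 to 0.0992, against -0.127 to 0.0961 for different numbers. These values cannot decide it, since variation between single libraries could hide a shared source. A replicate block gave 225 genes and 0 of the 34 in homozygous mice, 0 and 0 in heterozygous mice, and 2 over all genes for the dependence on genotype. A block cannot be nested in genotype for the genotype comparisons. A block across genotypes, added after the data were seen, gave 956 genes and 2 of the 37 in tdTomato+ cells, and 980 genes and 5 of the 37 in tdTomato- cells, without Ifitm3 and Irf7.

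Under upper quartile scaling 59.6% of all calls between genotypes were higher in KOTP, against 49.2% under TMM, and 63.5% were higher in KOTN, against 53.5%. With voom the median over all genes shifted by 0.22 in tdTomato+ and 0.33 in tdTomato- cells, and by 0.06 or less within genotypes. Low counts limit Ifi44, Iigp1, Rsad2, Oas2, Oas3, Ifit1, Ifit2 and Isg15.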
